A study of Mus musculus with 72 samples.

Results

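The metabotropic glutamate receptors described here are the 6 genes *Grm2*, *Grm3*, *Grm4*, *Grm5*, *Grm7* and *Grm8*. They were chosen by symbol, as the rows of the count table that the authors' own tables name with these symbols, and they make up 6 of 55401 genes. Metabotropic glutamate receptors are slow glutamate receptors that act through G proteins. Group I receptors, here *Grm5*, couple to Gq and lie mostly on the postsynaptic side, where they raise intracellular calcium. Group II receptors (*Grm2*, *Grm3*) and group III receptors (*Grm4*, *Grm7*, *Grm8*) couple to Gi/o, lower cyclic AMP and act in large part as presynaptic brakes on transmitter release.

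The transcripts were read in 72 libraries, each from the right brain hemisphere of a C57Bl/6 mouse pup (C57Bl/6NTac in the study's methods), while the submitters' design text names the cortex. The PND1 morphine pups were born to dams fitted with an osmotic minipump that delivered morphine, an opioid agonist, at 10 mg/kg/day, and the PND1 saline pups to dams with a saline pump. Dissection was on postnatal day 1, 6 h after the litter was found. The PND14 morphine pups were injected with 10 mg/kg morphine 2 times a day from birth, the PND14 saline pups with saline, and both were dissected on day 14, 6 h after the last injection. The 3-Tri morphine and saline pups had both the pump and the injections, grew up with surrogate dams and were taken on day 14. Of the PND1 libraries, 4 are labelled female morphine, 6 male morphine and 7 saline of each sex, and PND14 and 3-Tri held 6 libraries of each labelled sex and drug.

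Total counts were 20742862 to 27333125 per PND1 library, 4407544 to 21404819 per PND14 library and 3113919 to 19938980 per 3-Tri library, and each member had at least 74 counts in every library. Sex genes went against the labelled sex in 4 of 24 PND1 libraries, 0 of 24 PND14 libraries and 12 of 24 3-Tri libraries, so contrasts that average the labelled sexes are given beside those by label. Summed markers of cortical projection neurons were at 494 to 569 CPM in PND14 saline libraries and at 619 to 939 CPM in PND1 saline libraries. Hox genes of the hindbrain and spinal cord, 17 in the list, summed to 0 to 1.56 CPM in PND14 saline libraries and to 0.0390 to 61.4 CPM in PND1 saline libraries. No litter is named for any library, so a p-value here covers only the spread among the sampled pups, and littermates may be among them.

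The promoter windows of 3 members are shown because their genes differ in length, base composition and size of change below. Each is the 250 bases upstream of the RefSeq start in GRCm38.p6, read 5′ to 3′ on the gene's strand, with GC boxes (GGGCGG, or CCGCCC on the other strand) in capitals. *Grm2* lies on the minus strand (chr9:106656110-106656359), *Grm3* on the minus strand (chr5:9725353-9725602) and *Grm7* on the plus strand (chr6:110645262-110645511).
Grm2: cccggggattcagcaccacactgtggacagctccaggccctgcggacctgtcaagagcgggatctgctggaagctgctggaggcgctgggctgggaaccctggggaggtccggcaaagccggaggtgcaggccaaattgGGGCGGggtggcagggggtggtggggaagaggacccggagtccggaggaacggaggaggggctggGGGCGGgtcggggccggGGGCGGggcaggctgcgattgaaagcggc
Grm3: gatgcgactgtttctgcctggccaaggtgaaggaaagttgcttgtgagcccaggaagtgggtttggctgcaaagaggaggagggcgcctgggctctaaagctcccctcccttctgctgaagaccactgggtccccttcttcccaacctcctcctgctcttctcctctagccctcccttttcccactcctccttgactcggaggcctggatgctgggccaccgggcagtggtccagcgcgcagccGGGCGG
Grm7: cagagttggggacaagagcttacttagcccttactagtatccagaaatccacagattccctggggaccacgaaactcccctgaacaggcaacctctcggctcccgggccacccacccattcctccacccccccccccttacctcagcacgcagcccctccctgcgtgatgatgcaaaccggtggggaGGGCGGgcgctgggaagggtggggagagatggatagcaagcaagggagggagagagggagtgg
The *Grm2* window had 71.2% GC, 16 CpG dinucleotides and 3 GC boxes. The *Grm3* window had 62.4% GC, 8 CpG and 1 GC box, and the *Grm7* window 62.0% GC, 8 CpG and 1 GC box. Among all 32851 windows of this length the median GC content was 52.4%, 32.7% held a GC box and 8.47% held 3 or more. No cyclic AMP response element core (TGACG or CGTCA, in 17.8% of windows), E-box (CACGTG, in 6.02%) or TATA box (TATAAA or TTTATA, in 12.4%) was found in the 3 windows. These motifs and windows were chosen after the levels had been seen, and a match of letters is a description and not a binding site.

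The members differed widely in gene structure. In the mm10 build, *Grm5* spans chr7:87584168-88134907 on the plus strand (550.7 kb) with 42.5% GC in its longest transcript. The GC content of a gene is that of its longest transcript here and below. The group II genes are *Grm2* at chr9:106643095-106656082 on the minus strand (12.99 kb, 56.9% GC) and *Grm3* at chr5:9485541-9725170 on the minus strand (239.6 kb, 47.6% GC). The group III genes are *Grm4* at chr17:27422387-27521403 on the minus strand (99.0 kb, 61.7% GC), *Grm7* at chr6:110645581-111567230 on the plus strand (921.6 kb, 47.2% GC) and *Grm8* at chr6:27275119-28135178 on the minus strand (860.1 kb, 41.9% GC). All 6 are protein-coding. *Grm2* shares 470 exon bases with the antisense gene *Gm28111*, *Grm7* shares 130 with the antisense gene *Gm20387* and *Grm8* shares 96 with *Mir592*. The strand setting of the counting is not given, so reads of these overlaps cannot be told apart.

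The order of levels was set per length, as RPKM (CPM after TMM scaling, divided by exon length in kb). In PND14 saline libraries *Grm5* stood first at 26.9 RPKM (23.6 to 29.7), followed by *Grm3* at 22.6 RPKM (18.8 to 26.7) and *Grm7* at 17.6 RPKM (14.7 to 22.4). *Grm2* had 14.1 RPKM (13.1 to 15.7), *Grm4* 10.97 RPKM (9.37 to 12.02) and *Grm8* 2.29 RPKM (1.88 to 2.52), each a mean with the lowest and highest of 12 libraries. Neighbours in this order overlapped in their ranges except *Grm2* with *Grm4* and *Grm4* with *Grm8*. The order of means was the same in PND1 saline libraries, at 18.7 RPKM for *Grm5*, 13.1 for *Grm3*, 9.49 for *Grm7*, 6.68 for *Grm2*, 5.78 for *Grm4* and 1.41 for *Grm8*. All 6 together summed to 94.5 ± 6.00 RPKM in PND14 saline libraries (SD, n = 12) and to 55.2 ± 4.44 RPKM in PND1 saline libraries (SD, n = 14). *Grm5* made up 28.5% ± 0.936 of this sum in PND14 saline and 33.9% ± 1.63 in PND1 saline, and *Grm2* 14.9% ± 0.977 and 12.2% ± 1.49 (SD, same libraries). The *Grm5* shares of the ages did not overlap, by a narrow margin (30.26% at most in PND14 saline, 30.35% at least in PND1 saline), and the *Grm2* shares did.

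**Figure D1:**
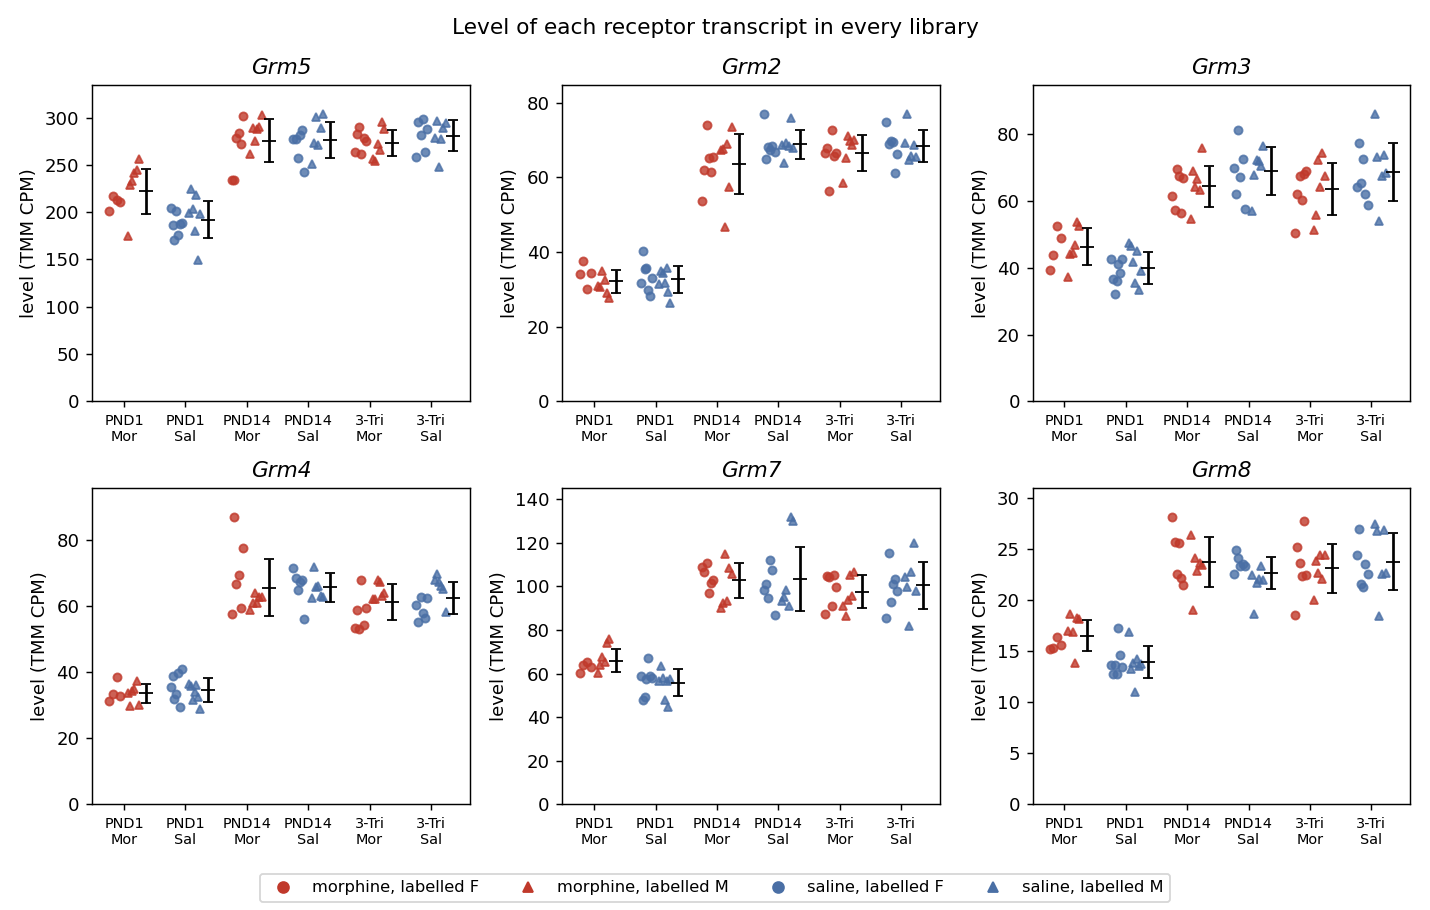
Level of each transcript (y axis, TMM-normalized CPM, from 0) in every library, by window and drug (x axis). Points are libraries, circles labelled female and triangles labelled male, and black bars are the mean with its SD over 4 to 7 libraries per labelled group joined across sexes (10 morphine and 14 saline at PND1, 12 in each other group). Means of day 14 groups lie above means of day 1 groups for every member, and morphine and saline libraries overlap on day 14.

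**Figure D2:**
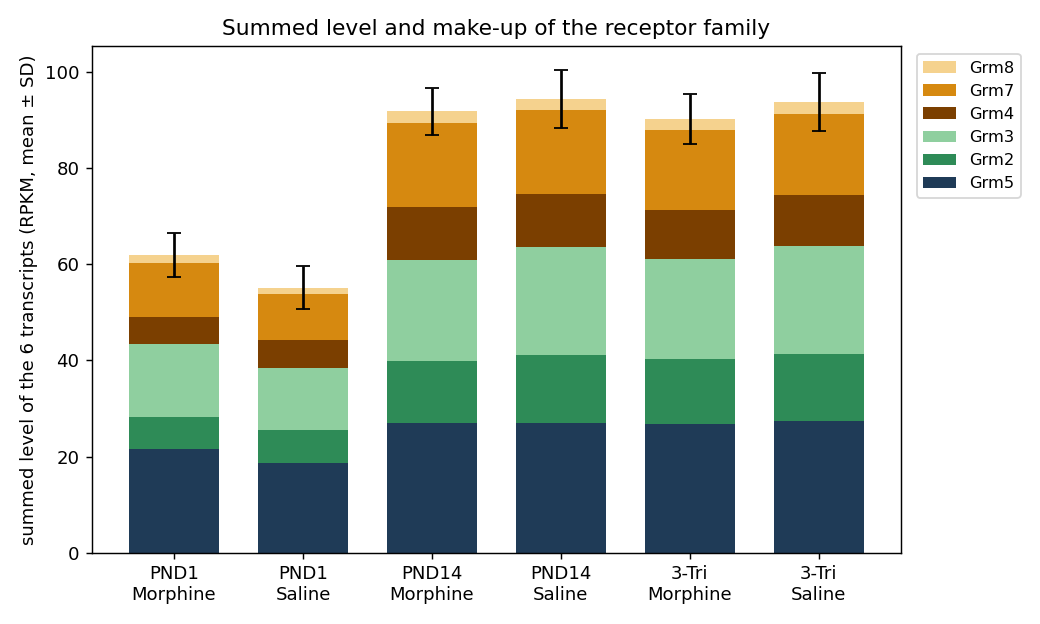
Summed level of the 6 transcripts (y axis, RPKM) in each window and drug group (x axis), with each member's part in colour. Bars are means and error bars the SD of the sum over 10 to 14 libraries. The sum was 90.3 to 94.5 RPKM in the 4 day 14 groups and 55.2 to 61.9 RPKM in the 2 day 1 groups, and *Grm8* was the thinnest part in all 6.

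The change with age was read first in saline pups, as PND14 minus PND1. All 6 receptor transcripts rose, and of these 6 *Grm2*, of group II, had the largest log2FC and *Grm5*, of group I, the smallest. With the labelled sexes averaged, all 6 members passed as higher (edgeR's quasi-likelihood test on all 72 libraries, Benjamini-Hochberg adjusted p under 0.05), where 84.9% of 22010 genes passed, 41.7% as higher and 43.2% as lower. The adjusted p-values of the members from edgeR ran between 1.08e-30 and 2.43e-17. Age, the route of saline, the set of litters, the depth and the Hox level of the libraries changed together between these groups and cannot be told apart. In whole-hemisphere RNA, more cells of a type and more RNA per cell cannot be told apart either.

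*Grm5*, the postsynaptic Gq-coupled member, had 242, 278 and 304 CPM as lowest, median and highest in PND14 saline libraries, against 149.7, 193 and 225 CPM in PND1 saline libraries. Every PND14 saline library lay above every PND1 saline library, with a log2FC of 0.52 (SE 0.0452). The share of all genes that separate in this way was not counted, here or for the members below. Corrected for base composition and exon length of the genes, the same log2FC was 0.81.

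*Grm2*, a group II autoreceptor of glutamate terminals, had 63.9, 68.4 and 77.0 CPM in PND14 saline libraries, against 26.4, 32.4 and 40.3 CPM in PND1 saline libraries. The groups were far apart, with a log2FC of 1.08 (SE 0.0512). *Grm3*, the group II receptor that astrocytes also carry and that responds to the dipeptide N-acetylaspartylglutamate (NAAG), had 57.2, 70.3 and 81.3 CPM, against 32.1, 40.1 and 47.5 CPM. Its groups did not overlap either (log2FC 0.79, SE 0.0645).

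Among group III, *Grm4*, a presynaptic receptor known for its high level in cerebellar granule cells, had 56.0, 65.9 and 71.8 CPM in PND14 saline libraries, against 28.7, 34.7 and 40.8 CPM in PND1 saline libraries (log2FC 0.93, SE 0.0481). *Grm7*, a low-affinity receptor of the presynaptic active zone, had 86.6, 98.3 and 132 CPM, against 44.7, 57.5 and 67.2 CPM (log2FC 0.89, SE 0.0573). *Grm8*, a presynaptic receptor of high glutamate affinity, had 18.6, 23.0 and 24.9 CPM, against 11.05, 13.7 and 17.3 CPM (log2FC 0.70, SE 0.0575). The 2 ages did not overlap for any of these 3 genes, and *Grm8* came closest. In this contrast 84.9% of 22010 genes passed, and how many of them separate fully was not counted. The 2 *Grm7* libraries at the top, both labelled PND14 male saline, stood well above the other 4 of that group, whose highest was 98.3 CPM.

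By labelled sex the saline change was 0.53 for *Grm5*, 1.04 for *Grm2*, 0.82 for *Grm3*, 0.89 for *Grm4*, 0.82 for *Grm7* and 0.75 for *Grm8* in females. In males it was 0.52 for *Grm5*, 1.11 for *Grm2*, 0.75 for *Grm3*, 0.96 for *Grm4*, 0.96 for *Grm7* and 0.65 for *Grm8*. All 6 passed in each labelled sex, where 78.9% of genes passed in females, 38.8% as higher, and 78.7% in males, 38.7% as higher. In the test of the male minus female difference of this change 0 members and 1 gene passed (0.00454% of genes, 1401 at an unadjusted p under 0.05), and the members' differences were between -0.095 for *Grm8* (SE 0.115) and 0.14 for *Grm7* (SE 0.115).

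The 3-Tri saline pups were of the same age as PND14 saline pups, and their comparison with PND1 saline uses the same PND1 libraries. Over PND1 saline the log2FC of 3-Tri saline was 0.55 for *Grm5*, 1.07 for *Grm2*, 0.77 for *Grm3*, 0.85 for *Grm4*, 0.85 for *Grm7* and 0.76 for *Grm8*, and all 6 passed where 42.1% of genes passed as higher. Between 3-Tri saline and PND14 saline themselves, 0 members and 0 genes passed with edgeR (723 genes at an unadjusted p under 0.05), and the members' log2FC ran between -0.077 for *Grm4* and 0.062 for *Grm8*. In morphine pups the log2FC of PND14 over PND1 was 0.33 for *Grm5*, 0.98 for *Grm2*, 0.48 for *Grm3*, 0.97 for *Grm4*, 0.65 for *Grm7* and 0.52 for *Grm8*, all 6 past the threshold where 41.8% of genes passed as higher. *Grm5* was the member whose ages overlapped with morphine, with 2 of 12 PND14 morphine libraries at or under the highest PND1 morphine library (256 CPM).

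**Figure D3:**
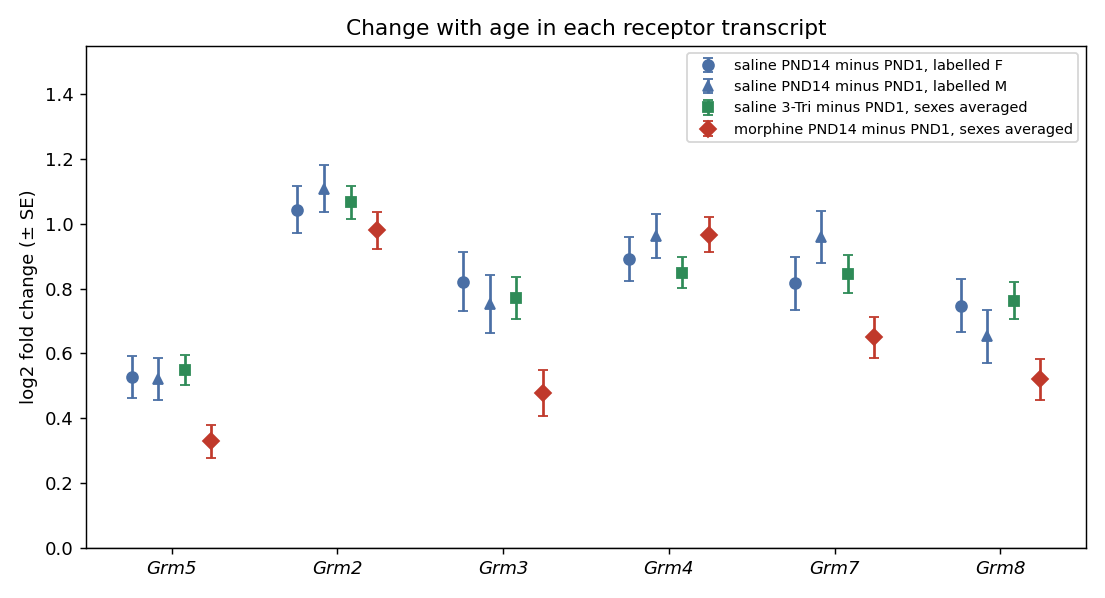
Change with age (y axis, log2 fold change with its SE) of each transcript (x axis): saline PND14 minus PND1 by labelled sex, saline 3-Tri minus PND1 and morphine PND14 minus PND1. *Grm2* was highest in each contrast, at 0.98 to 1.11, and *Grm5* lowest, at 0.33 to 0.55.

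The other genes of the pathway changed with age in both directions, where 41.7% of all genes passed as higher and 43.2% as lower. Of 12 genes that supply or clear glutamate and NAAG, 8 were higher and 3 lower in PND14 saline than in PND1 saline (median log2FC 0.92, against -0.017 over all genes). Named by smallest p, the vesicular transporter *Slc17a7* had a log2FC of 4.45, the glial uptake carrier *Slc1a2* 4.10 and glutamine synthetase *Glul* 1.90, while *Rimklb*, an enzyme of NAAG synthesis, had -1.55. Of 13 genes of the Gq arm and its postsynaptic partners, 11 were higher and 1 lower (median 0.98). Neurochondrin (*Ncdn*), which binds *Grm5* protein, had 2.25, the scaffold *Shank3* 1.74 and phospholipase *Plcb1* 1.65.

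Of 9 genes of the Gi/o arm and its presynaptic partners, 7 were higher and 2 lower (median 0.71), against 41.7% and 43.2% of all genes. The scaffold *Grasp*, whose place in this arm and on the presynaptic side was assumed and not tested, had 1.94. The G protein subunits *Gnai1* and *Gnai3* had 0.93 and -1.03, and *Elfn2*, an adhesion protein that binds group III receptors, 0.83.

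Markers of cell types moved with age too, in a contrast where 41.7% of all genes passed as higher and 43.2% as lower. All 6 oligodendrocyte markers were higher in PND14 saline, with a summed level of 3798 to 5591 CPM, against 194 to 268 CPM in PND1 saline libraries. Of 6 astrocyte markers 5 were higher, summing to 1192 to 1430 CPM in PND14 saline and 307 to 468 CPM in PND1 saline libraries. All 5 striatal neuron markers, 5 microglia markers and 4 endothelial markers were higher, and all 15 tested Hox genes were lower. Of 5 general neuron markers 3 were higher and 2 lower, summing to 3810 to 4363 CPM in PND14 saline and 2277 to 2622 CPM in PND1 saline libraries. Of 9 cerebellum markers 2 were higher and 4 lower, of 5 cortical projection neuron markers 1 was higher and 4 lower, and of 4 choroid plexus markers 1 was higher and 3 lower. Of 3 retina markers 1 was higher, *Trpm1*. Their part in the rise of the receptors was not tested.

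Prenatal morphine was compared with saline at PND1. With the labelled sexes averaged, *Grm5*, *Grm3*, *Grm7* and *Grm8* passed as higher in morphine pups, by small amounts, while *Grm2* and *Grm4* did not pass. That is 4 of 6 members, where 16.8% of 21714 genes passed, 7.39% as higher and 9.43% as lower. By label, 3 members (*Grm5*, *Grm7*, *Grm8*) passed in males, where 14.4% of genes passed, 6.31% as higher and 8.08% as lower. In females 0 members and 0 genes passed with edgeR (2547 genes at an unadjusted p under 0.05, 138 with DESeq2). The male minus female difference itself passed for 0 members and 0 genes (1187 at an unadjusted p under 0.05, 0 with DESeq2), so a sex difference was not shown.

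Of the 6 libraries labelled PND1 male morphine 5, replicates 6 to 10, stood apart in base composition. Across 18317 genes, the deviations of these libraries from the PND1 mean went with GC content at r = -0.506 to -0.321, against 0.0483 in male morphine replicate 5, 0.0119 to 0.0762 in female morphine, 0.134 to 0.283 in female saline and -0.156 to 0.246 in male saline libraries. Without those 5 libraries, a setting chosen after these r values had been seen, 0 members passed in males, in females or with the sexes averaged (99, 0 and 378 genes passed). Of the male morphine group 1 library then remained, replicate 5, assumed to vary like the other groups. Its sex genes go against its label (*Xist* 362 CPM, *Ddx3y* 0.0428 CPM), and the male value without the 5 libraries, like the male part of the averaged one, rests on it. The averaged log2FC without the 5 libraries was -0.0076 for *Grm5* and 0.053 for *Grm3*, 0.14 for *Grm7* and 0.22 for *Grm8*, so the value of *Grm8* stayed near its size while its call ended. All 5 are male morphine libraries, so the trend and that group cannot be told apart.

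*Grm5* had 201, 210.3, 213 and 217 CPM in the PND1 female morphine libraries, against 170.1, 188 and 205 CPM as lowest, median and highest in female saline. In males it had 174, 237 and 256 CPM with morphine, against 149.7, 199 and 225 CPM with saline. The 5 male morphine libraries of the GC trend were the 5 highest of all PND1 libraries, and the share of all genes with this order was not counted. Male morphine replicate 5, the lowest of its group, lay within the saline range. The log2FC was 0.17 (SE 0.0861) in females (edgeR adjusted p = 0.463), 0.23 (SE 0.0766) in males (adjusted p = 0.0471) and 0.20 (SE 0.0576) averaged (adjusted p = 0.0207). The male call was kept in 5 of 24 fits that left out 1 library (adjusted p = 0.00234 to 0.120), and it ended with no filter on low counts (0.0621) and with the female libraries outside the fit (0.114). Without male morphine replicate 5 the male log2FC of *Grm5* was 0.30 (adjusted p = 0.00234) and 4944 genes passed in males, against 3124 with it.

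*Grm3* had 39.2, 43.9, 49.0 and 52.5 CPM in female morphine libraries, against 32.1, 38.6 and 42.8 CPM in female saline. In males it had 37.4, 45.7 and 53.6 CPM with morphine, against 33.3, 41.8 and 47.5 CPM with saline. Both sexes overlapped between the drugs, and 4 of 10 morphine libraries lay above every saline library. The share of all genes with as many was not counted. The log2FC was 0.26 (SE 0.102) in females, 0.17 (SE 0.0907) in males and 0.22 (SE 0.0681) averaged, and the averaged value was the one past the threshold (edgeR adjusted p = 0.0302). That call ended without female morphine replicate 3 or 4, male morphine replicate 9 or 10 or male saline replicate 11, with adjusted p up to 0.0894. Female morphine replicates 3 and 4, at 52.5 and 49.0 CPM of *Grm3*, each held reads of both sex genes. *Ddx3y* stood at 8.64 CPM in replicate 3 and at 48.1 CPM in replicate 4, where *Xist* stood at 399.6 and 94.9 CPM. In female morphine replicates 1 and 2 *Ddx3y* was at 0 CPM. Other PND1 libraries held reads of both sex genes as well. *Xist* and *Ddx3y* stood at 9.81 and 48.1 CPM in female saline replicate 5. They stood at 13.5 and 68.1 CPM in male morphine replicate 6 and at 10.3 and 56.6 CPM in male saline replicate 11. Whether any of these libraries mix material of both sexes was not tested.

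*Grm2*, the other group II receptor, had 30.2, 34.2, 34.3 and 37.5 CPM in female morphine libraries, against 28.2, 33.2 and 40.3 CPM in female saline. In males it had 27.6, 30.8 and 34.9 CPM with morphine, against 26.4, 31.7 and 35.9 CPM with saline. The morphine libraries lay inside the saline range in both sexes, and the averaged log2FC was -0.010 (SE 0.0586).

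Of group III, *Grm7* had 60.2, 63.2, 63.8 and 65.4 CPM in female morphine libraries, against 47.7, 57.8 and 67.2 CPM in female saline. In males it had 60.1, 66.5 and 75.9 CPM with morphine, against 44.7, 56.6 and 63.2 CPM with saline. All 10 morphine libraries lay above the saline median and 3 above the saline maximum, and the share of all genes that do so was not counted. The log2FC was 0.15 (SE 0.0840) in females, 0.30 (SE 0.0747, edgeR adjusted p = 0.00814) in males and 0.23 (SE 0.0561, adjusted p = 0.00682) averaged. *Grm7* was the member whose call held after each library was corrected for GC content and exon length, at 0.25 in males (adjusted p = 0.0351) and 0.19 averaged (adjusted p = 0.0238). Genomic span was not corrected for.

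*Grm8* had 15.2, 15.3, 15.6 and 16.4 CPM in female morphine libraries, against 12.8, 13.7 and 17.3 CPM in female saline. In males it had 13.9, 17.6 and 18.7 CPM with morphine, against 11.05, 13.8 and 16.9 CPM with saline. Again all 10 morphine libraries lay above the saline median and 3 above the maximum, with the share of all genes that do so not counted. The log2FC was 0.15 (SE 0.0924) in females, 0.31 (SE 0.0820, edgeR adjusted p = 0.0118) in males and 0.23 (SE 0.0617, adjusted p = 0.0113) averaged. After the correction for GC content and exon length it was 0.20 in males (adjusted p = 0.128) and 0.15 averaged (adjusted p = 0.118).

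*Grm4* had 31.1, 32.9, 33.4 and 38.5 CPM in female morphine libraries, against 29.3, 35.5 and 40.8 CPM in female saline. In males it had 29.7, 34.0 and 37.4 CPM with morphine, against 28.7, 33.8 and 36.4 CPM with saline. The drugs overlapped nearly completely, and the averaged log2FC was -0.038 (SE 0.0575).

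Base composition and gene length went along with these calls. Over all genes, those higher with PND1 morphine had a median GC content of 44.2% and a median genomic span of 42.2 kb, those lower 56.3% and 8.34 kb, and all tested genes 49.4% and 18.3 kb. Across 21666 genes, which are not independent replicates, the averaged log2FC had an r of -0.434 with GC content and of 0.264 with log2 span. The 4 members that passed, *Grm5*, *Grm8*, *Grm7* and *Grm3*, are the 4 with the lowest GC content (41.9% to 47.6%) and the longest spans (239.6 to 921.6 kb). *Grm2* and *Grm4*, which did not pass, have 56.9% and 61.7% GC. Under the correction, which used exon length and not genomic span, *Grm7* alone kept its call. Without the 5 libraries of the GC trend the call of *Grm7* ended (averaged log2FC 0.14).

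**Figure D4:**
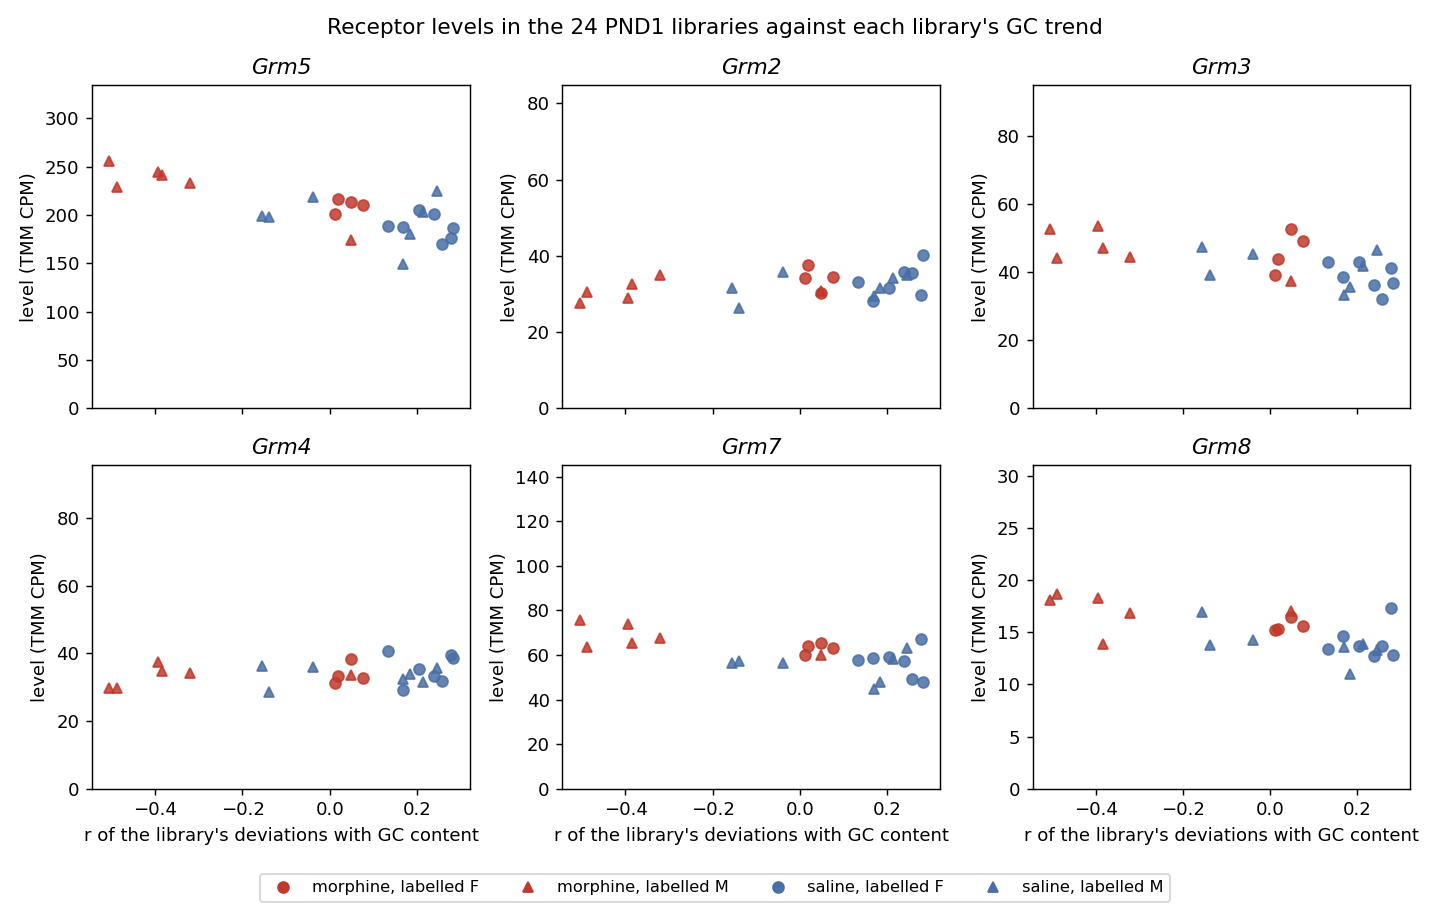
Level of each transcript (y axis, TMM CPM, from 0) in the 24 PND1 libraries against the r between a library's deviations from the PND1 mean and GC content over 18317 genes (x axis, no unit). Red points are morphine and blue points saline libraries, circles labelled female and triangles labelled male. The 5 male morphine libraries left of -0.3 hold the 5 highest *Grm5* levels, and libraries of both drugs overlap for *Grm2* and *Grm4*.

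Other genes of the pathway changed with PND1 morphine in both directions, averaged over the labelled sexes. In this contrast 7.39% of all genes passed as higher and 9.43% as lower. Of 12 supply and clearance genes 4 were higher and 1 lower (median log2FC 0.11, against 0.0074 over all genes). The uptake carriers *Slc1a3* and *Slc1a2* had a log2FC of 0.16 each, the vesicular transporter *Slc17a8* had 0.62 and *Slc17a7* -0.27. Of 13 Gq arm genes 2 were higher and 3 lower (median -0.00016): *Plcb1* had 0.17 and *Homer1*, a scaffold of group I receptors, 0.13, while *Gna11* and *Ncdn* had -0.11 each and *Homer3* -0.15. Of 9 genes listed under the Gi/o arm 0 were higher and 3 lower (median -0.081). *Elfn2* had -0.23, *Pick1*, a scaffold that binds *Grm7* protein, -0.19 and *Grasp*, placed in this arm by assumption, -0.37. *Slc17a7* and *Homer1*, which have the largest p among the called genes of their lists, were named after their values were seen. Without the 5 male morphine libraries of the GC trend *Elfn2* alone of these 34 genes passed, as lower.

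Markers of some cell types moved with PND1 morphine, averaged over the labelled sexes, where 7.39% of all genes passed as higher and 9.43% as lower. Of 5 neuron markers *Snap25* and *Syt1* were higher and *Tubb3* lower, with summed levels of 2399 to 2750 CPM in morphine and 2277 to 2622 CPM in saline libraries. Of 5 striatal markers *Adora2a* and *Ppp1r1b* were lower (67.1 to 90.5 CPM in morphine, 70.9 to 108 CPM in saline), as were *Sox10*, *Cldn5* and *Clic6* of the oligodendrocyte, endothelial and choroid plexus lists. No marker of cerebellum, cortical projection neurons, astrocytes, microglia or retina passed. The Hox genes summed to 0.831 to 117 CPM (median 22.9) in morphine and 0.0390 to 61.4 CPM (median 9.21) in saline libraries. Averaged, 0 of 15 passed, against 3 of 15 in males, all higher, where 6.31% of all genes passed as higher. Their part in the receptor values was not tested.

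With postnatal morphine no receptor passed at PND14. With the labelled sexes averaged 0 members passed, where 1.69% of 19636 genes passed, 0.626% as higher and 1.06% as lower. By label 0 members passed in either sex, where the female contrast had 0 genes past the threshold with edgeR (0%, with 2054 at an unadjusted p under 0.05 and 22 with DESeq2) and 0.28% in males (0.0815% as higher, 0.199% as lower). *Grm5* had 234, 281 and 302 CPM as lowest, median and highest in PND14 morphine libraries, against 242, 278 and 304 CPM in PND14 saline libraries, a log2FC of 0.0025 (SE 0.0417). *Grm2* had 46.6, 65.4 and 74.0 CPM, against 63.9, 68.4 and 77.0 CPM, and *Grm3* 54.6, 65.5 and 76.0 CPM, against 57.2, 70.3 and 81.3 CPM.

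The largest averaged log2FC of a member at PND14 was -0.10 for *Grm2* (SE 0.0542, edgeR adjusted p = 0.349), with 5 of 12 morphine libraries below the lowest saline library. *Grm3* had -0.090 (SE 0.0555), with 1 of 12 morphine libraries above the saline median. *Grm4*, *Grm7* and *Grm8* had a log2FC of 0.0044, -0.0068 and 0.054, and 2 morphine libraries of *Grm4* and 4 of *Grm8* lay above every saline library. Those of *Grm4*, at 86.9 and 77.3 CPM, are female morphine replicates 5 and 12. How many of all genes separate in these ways at PND14 was not counted. The 9 cerebellum markers summed to 95.4 to 264.8 CPM in PND14 morphine libraries and 90.5 to 171.0 CPM in PND14 saline libraries. Their median log2FC was 1.498 in labelled females and -0.301 in labelled males, and 0 of them passed. Their part in the *Grm4* values was not tested. The number that opens the sample ID held 1 drug only, 2 numbers a drug, so this number and the drug cannot be told apart. In the pathway lists *Rimklb* was higher (0.17) and *Itpr1* (-0.20) and *Homer1* (-0.16) lower, where 0.626% of all genes passed as higher and 1.06% as lower.

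Morphine before and after birth was compared with saline in 3-Tri. In 3-Tri 0 members and 0 genes (0%) passed with edgeR, averaged or by label (963 genes at an unadjusted p under 0.05 averaged, 0 genes with DESeq2). *Grm5* had 254, 274 and 296 CPM as lowest, median and highest in 3-Tri morphine libraries, against 248, 285 and 298 CPM in 3-Tri saline libraries. *Grm2* had 56.5, 67.3 and 72.7 CPM, against 61.1, 68.9 and 77.1 CPM, and *Grm7* had 86.3, 97.5 and 107 CPM, against 81.6, 100.3 and 119.9 CPM. The drugs overlapped widely for each member. In this window sex genes went against the label in 4 of 6 libraries of both morphine groups and in 2 of 6 of both saline groups. Whether the drug labels of these libraries hold was not tested, and averaging the labelled sexes does not settle it. Without them 0 members passed as well. The averaged log2FC was -0.038 for *Grm5* (SE 0.0328), -0.039 for *Grm2*, -0.094 for *Grm3* (SE 0.0660), -0.028 for *Grm4*, -0.041 for *Grm7* and -0.029 for *Grm8*. The male minus female difference passed with edgeR for 0 members at PND14, where 0 of 19636 genes passed. At 3-Tri it passed for 0 members, where 0 of 19730 genes passed. The pathway lists held 0 changed genes at 3-Tri.

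**Figure D5:**
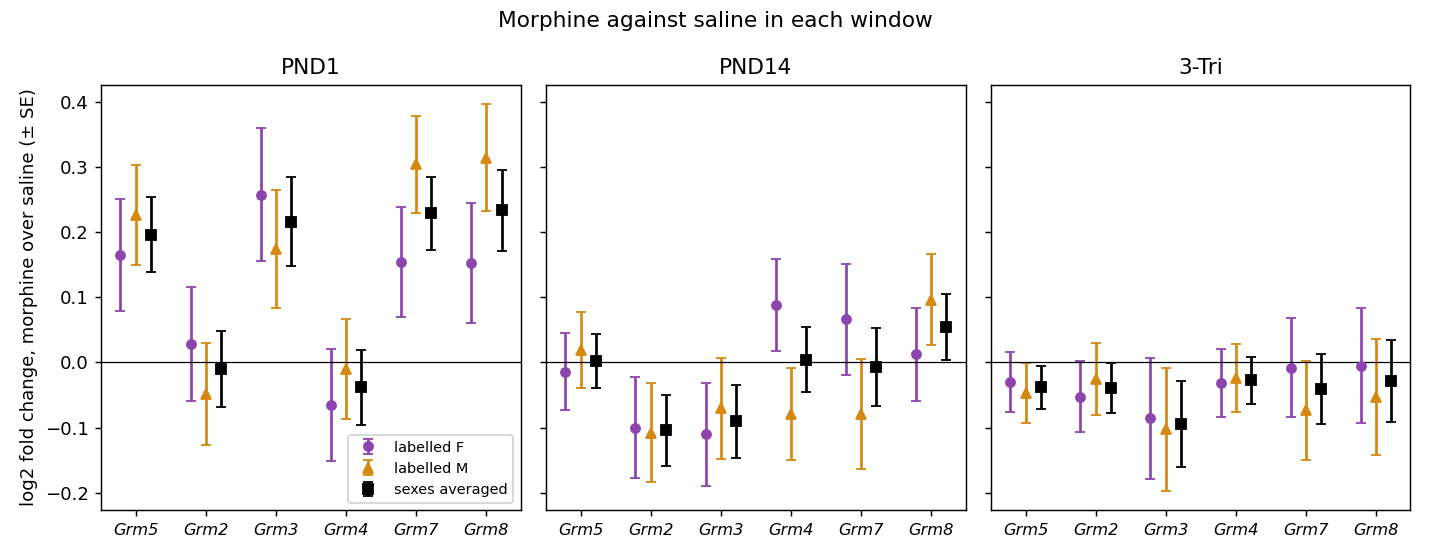
Morphine over saline (y axis, log2 fold change with its SE) for each transcript (x axis) in each window, by labelled sex and averaged. At PND1 *Grm3*, *Grm5*, *Grm7* and *Grm8* lie at 0.20 to 0.23 averaged, without the 5 libraries of the GC trend at -0.0076 to 0.22, and on day 14 all 6 lie between -0.10 and 0.054 averaged.

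Whether the drug difference itself differed between windows was tested in the fit of all 72 libraries. These tests share the PND1 libraries. PND14 minus PND1, the difference was -0.31 for *Grm3* (SE 0.0961, edgeR adjusted p = 0.0225) and -0.20 for *Grm5* (SE 0.0673, adjusted p = 0.0410), both past the threshold, and 13.3% of 22010 genes passed (7.25% as higher, 6.07% as lower). *Grm7* had -0.24 and lay at the threshold (adjusted p = 0.0505), past it in 5 of 7 alternatives (adjusted p down to 0.0291 with DESeq2). It did not pass with the GC and length correction (0.190) or without the 5 libraries of the GC trend (0.580). *Grm8* had -0.18, *Grm2* -0.095 and *Grm4* 0.040. 3-Tri minus PND1, 4 members passed as lower: *Grm3* at -0.31 (SE 0.0955), *Grm5* at -0.23 (SE 0.0672), *Grm7* at -0.27 (SE 0.0850) and *Grm8* at -0.26 (SE 0.0842), with adjusted p of 0.0205 to 0.0366, where 8.43% of genes passed (4.58% as higher, 3.85% as lower).

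Without the 5 PND1 male morphine libraries, or with the GC and length correction, 0 members passed in either test. Without those libraries *Grm5* had 0.0040 in PND14 minus PND1 and -0.031 in 3-Tri minus PND1. The 3-Tri calls also ended without the libraries whose sex genes go against the label, at -0.21 to -0.35 (adjusted p = 0.173 to 0.277), and the PND14 call of *Grm5* ended without the libraries the authors left out (adjusted p = 0.0615). Between 3-Tri and PND14 0 members passed, where 0.182% of genes passed, and the members' differences were between -0.083 and 0.067.

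No member passed between the labelled sexes. Female minus male, drugs averaged, 0 members passed at PND1 (4.73% of genes passed, 2.22% as higher and 2.5% as lower), at PND14 (0.107%, 0.0815% as higher and 0.0255% as lower) or at 3-Tri (0%). The members' log2FC lay between -0.097 and 0.10 at PND1, -0.073 and 0.10 at PND14 and -0.15 and 0.0065 at 3-Tri. The -0.15 was *Grm4*, at 57.8 ± 5.69 CPM in female morphine and 59.1 ± 3.18 CPM in female saline, against 64.3 ± 2.54 CPM in male morphine and 65.6 ± 4.00 CPM in male saline (SD, n = 6 each). Its unadjusted edgeR p was 0.000304 and its adjusted p 1.00, and in this window 12 of 24 libraries carried sex genes against their label. The 9 cerebellum markers had a median log2FC of -0.48 in this contrast, where 0 of them passed. Their part in the *Grm4* value was not tested.

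Some members also varied together between libraries of 1 group. After the mean of each of the 12 groups was taken away, *Grm3* and *Grm5* had r = 0.674 over the 72 libraries (0.757 in the 24 of PND1, 0.630 in the 48 others). *Grm3* and *Grm7* had r = 0.581, *Grm5* and *Grm7* 0.549 and *Grm7* and *Grm8* 0.470. *Grm3* and *Grm8* had 0.361, and *Grm5* and *Grm8* 0.011. The pairs with *Grm2* or *Grm4* had r between -0.167 and 0.256 over the 72 libraries. In PND1 alone these pairs ran from -0.392 for *Grm2* and *Grm8* to 0.457 for *Grm3* and *Grm4*. The same 2 pairs had 0.016 and 0.114 in the 48 other libraries. Whether the pattern among the members differs between windows was not tested. Libraries share depth and base composition across genes, so these r are descriptions with no p.

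By the same measure over 14742 protein-coding genes, those most like *Grm5* were *Zyg11b* (r = 0.888), *Agtpbp1* (0.858), *Dock9* (0.848), *Myo9a* (0.847) and *Mycbp2* (0.847). For *Grm3* they were *Dop1b* (0.800), *Akap6* (0.785), *9330182L06Rik* (0.748), *Dnm3* (0.740) and *Map1b* (0.739), and for *Grm2* *Enc1* (0.691), *Mical2* (0.663), *Pnmal1* (0.663) and 2 gene IDs of *Chtf8* (0.657 each). For *Grm7* they were *Galntl6* (0.831), *Mdga2* (0.817), *Rbfox1* (0.795), *Magi2* (0.794) and *Macrod2* (0.792). *Grm8* and *Grm4* had weaker likeness, led by *Zfp385b* (0.642), *Cox16* (0.575), *Adarb2* (0.574), *Gpc5* (0.571) and *Lrrtm4* (0.567) for *Grm8*. For *Grm4* the genes were *Trim16* (0.584), *Kcnj12* (0.562), *Miga2* (0.553), *Kif26b* (0.544) and *Sipa1l3* (0.544). The r of *Trim16* with *Grm4* was 0.851 in the 24 PND1 libraries and 0.334 in the 48 others, so it rested mostly on PND1.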

How the data were processed

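Bulk RNA from 72 hemispheres was read as gene counts. The authors trimmed reads with Trim Galore 0.6.6, aligned them with HISAT2 2.2.1 to GRCm38 (mm10), removed duplicates and counted with featureCounts 2.0.1, and the deposited counts are raw, with 0 columns that matched no sample and 0 rows that name no gene. The authors' own tables hold a mean signal per gene (the mean of counts over size factors), used here to learn which libraries entered them, and DESeq2 log2 fold changes, p-values and scores that were not used. Their means matched all PND1 libraries, PND14 without female morphine replicate 4 and 3-Tri without male saline replicate 1; all 72 libraries entered here. Removal of duplicates lowers high counts, and the counts carry whatever base composition bias each library had.

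Groups were taken from the labels. Counts were fitted in R 4.3.3 with edgeR 4.0.16 (TMM scaling, filterByExpr at a minimum count of 10 and total of 15, quasi-likelihood F test), 4 groups of a window together for drug and sex and 12 groups for age and differences between windows. The p-values were adjusted over all tested genes by the method of Benjamini and Hochberg, and a call is an adjusted p under 0.05. CPM are TMM-normalized, and SE is that of the log2FC. Symbols, exons and coordinates came from GENCODE M21 (55141 of 55401 IDs matched), and promoter windows from RefSeq, in which 4 of 6 members had one and 3 are shown.

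Named were all members, up to 4 genes of each pathway list with the smallest p among those called, and for each member the 5 genes most like it (r of log2 CPM, prior count 2). Some genes that this rule names are not reported here. Members, lists and tests were chosen with earlier results of these data known.

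Alternatives were DESeq2 1.42.0, its size factors, no filter and a GC and length correction (lowess span 0.3). The length in this correction is exon length, not genomic span. Further alternatives were the replicate number as a block, the groups compared alone and counts summed per ID number. Others left out single libraries, ID numbers, libraries the authors left out or libraries whose sex genes go against the label. Alternatives chosen after seeing the data were fits that left out the 5 libraries of the strongest GC trend (r under -0.3), and most alternatives for differences between windows. The steps were tested on simulated counts. No 2 libraries of a group matched within counting noise (lowest chi-square per gene 1.64). Plots used Python 3.11.15 and matplotlib 3.10.9.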

Additional observations from a re-analysis of the deposited data

Results flagged for a closer look

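Of 72 member and group pairs and 12 groups of total counts examined, 5 and 3 held a library whose gap to its group was wide for the group's range (Dixon's 95% limit), where chance gives about 1 in 20. *Grm5* was 174 CPM in PND1 male morphine replicate 5, with the others of that group at 229 to 256 CPM, and *Grm8* was 17.3 CPM in PND1 female saline replicate 5, with the others at 12.8 to 14.6 CPM. Both are libraries whose sex genes go against the label. Without male morphine replicate 5 the male *Grm5* log2FC was 0.30 (edgeR adjusted p = 0.00234). *Grm2* was 77.0 CPM in PND14 female saline replicate 4 (others 65.0 to 68.4 CPM) and 77.1 CPM in 3-Tri male saline replicate 2 (others 64.6 to 69.1 CPM), and *Grm8* was 18.6 CPM in PND14 male saline replicate 2 (others 21.7 to 23.4 CPM).

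Total counts stood apart at 20788270 in PND1 female morphine replicate 2, 3113919 in 3-Tri male saline replicate 1 and 10923548 in 3-Tri female saline replicate 11. The shallow 3-Tri male saline library held 748 counts of *Grm5* and 74 of *Grm8*, the lowest of any library for both.

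The drug difference differed between windows for *Grm3* (-0.31) and *Grm5* (-0.20) in PND14 minus PND1. In 3-Tri minus PND1 it differed for *Grm3* (-0.31), *Grm5* (-0.23), *Grm7* (-0.27) and *Grm8* (-0.26). All 6 values rest on the same PND1 libraries, and none passed without the 5 male morphine libraries that follow GC content.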

How the results depend on the processing

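The saline rise with age kept its direction and call for all 6 members in 26 fits without 1 library and 9 other alternatives (*Grm5* 0.49 to 0.81, *Grm2* 1.04 to 1.28). At PND1 the members called in males were 1 (*Grm7*) with the GC and length correction and 0 without the 5 libraries of the GC trend. Averaged over the sexes they were 1 (*Grm7*) and 0, and 0 and 0 in both differences from PND1. The 3-Tri minus PND1 difference had 0 without the libraries whose sex genes go against the label. Counts of genes called with the correction were 1080 in PND1 males, against 3124 without it, 1779 averaged, against 3653, and 150 at PND14, against 332. DESeq2 called 138 genes in PND1 females, 203 in PND14 males and 657 at PND14 averaged, against 0, 55 and 332 with edgeR. In the PND14 and 3-Tri differences from PND1, 2931 and 1855 genes were called, 1359 and 919 with the correction and 215 and 337 without the 5 libraries. Without the libraries against the sex label, 50 were called in 3-Tri minus PND1. Leaving out 1 library moved the genes called to 1861 to 4944 in PND1 males (lowest without male morphine replicate 9, highest without replicate 5), 0 to 120 in PND14 males and 110 to 638 at PND14 averaged, and at PND14 0 members were called in each of these fits.

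The replicate number as a block called 0 members in PND1 males and 3 averaged, without *Grm8* (edgeR adjusted p = 0.0765), and with the correction 0 and 1. It is not known whether the same number pairs pups: of 31 pairs 14 had deviations with r over 0.1 and 7 matched their own number best (r = -0.379 to 0.469). These are the numbers of the sample titles. The count columns are numbered otherwise in some groups, and a pairing by those numbers was not checked. With the block *Grm2* was -0.067 in PND1 females and 0.024 in 3-Tri minus PND1, and *Grm7* 0.00016 at PND14. With block and correction *Grm2* was -0.0083 and *Grm4* 0.062 in PND1 females, *Grm4* 0.21 in males and 0.14 averaged, and at PND14 *Grm4* was -0.0077 and *Grm7* 0.024.

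Other signs turned in values that were not called, apart from *Grm5*. With the correction *Grm4* was 0.023 in PND1 females, *Grm2* 0.050 and *Grm4* 0.17 in males, 0.069 and 0.098 averaged, *Grm4* -0.0050 and *Grm7* 0.018 at PND14, and *Grm4* -0.12 and -0.16 in the PND14 and 3-Tri differences from PND1. Without the 5 libraries, *Grm3* was -0.15, *Grm4* 0.0055 and *Grm5* -0.18 in PND1 males, and *Grm5* was -0.0076 averaged and 0.0040 in PND14 minus PND1. Without libraries against the sex label, *Grm2* was -0.0085 in PND1 females, *Grm5* 0.015 at 3-Tri and *Grm4* -0.052 in 3-Tri minus PND1.

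Leaving out an ID number at PND14 gave *Grm4* -0.0067 (4422) and -0.038 (4425), *Grm5* -0.071 (4423) and -0.015 (4424) and *Grm7* 0.010 (4423) and 0.087 (4425). At 3-Tri it gave *Grm2* 0.0065, *Grm3* 0.0065, *Grm5* 0.0023 and *Grm8* 0.0048 (4433), and *Grm2* 0.0050 and *Grm4* 0.017 (4431). Leaving out 1 library gave *Grm2* -0.024 to 0.084 in PND1 females and -0.037 to 0.018 averaged, *Grm4* -0.056 to 0.021 in PND1 males, and at PND14 *Grm4* -0.033 to 0.029, *Grm5* -0.016 to 0.021 and *Grm7* -0.027 to 0.029. In the comparisons given only as counts or ranges, 48 of 930 values changed sign, none beyond 0.088. Differences between windows were not refitted without single libraries. Causes were not tested. Depth limits the precision of each value, and the lowest count of a member in a library was 74, of *Grm8*.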
